A study of Homo sapiens with 42 samples.

Results

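ATP-binding cassette (ABC) transporter genes were followed through chromatin accessibility in 4 EGFR-mutant lung adenocarcinoma cell lines, PC9, NCI-H1975 (H1975), HCC827 and HCC2935. The members are all regions of the annotated tables whose gene symbol is ABC, 1 letter from A to G and digits. They number 590 of 242490 annotated regions and carry the symbols of 40 genes. PC9 had 174 of them, H1975 had 191, HCC827 had 55 and HCC2935 had 170. Promoter regions, those within 3 kb of an annotated transcript start, were kept apart from all other regions. There were 94 promoter and 80 other regions in PC9, 91 and 100 in H1975, 31 and 24 in HCC827, and 64 and 106 in HCC2935. The symbol is that of the nearest transcript start, so some regions lie outside the gene they are named for. The gene's own RefSeq 5′ end lay within 3 kb of 37 of the 64 HCC2935 promoter regions and 18 of the 31 HCC827 ones. For H1975 this held for 44 of 91, and for PC9 it held for 47 of 94. The others lie elsewhere, so counts of promoter regions are not counts of gene starts. A promoter region of any line was found for 35 genes, and for 16 of these in each of the 4 tables.

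The 42 libraries formed 14 groups of 3, described by the series as biological triplicates. Control cells of each line were kept 21 days without drug and then 3 days in the vehicle DMSO. Drug-tolerant persister (DTP) cells had 24 days in 500 nM osimertinib, an inhibitor of mutant EGFR. Combo cells spent 21 days in osimertinib, followed by 3 days in 150 nM of the bromodomain inhibitor AZD5153, and no label says if osimertinib stayed in the medium on those last days. In PC9 and H1975 another group had 21 drug-free days and then 3 days in 150 nM AZD5153 alone. Each group is 1 established cell line in culture, so a comparison speaks for that line. The titles and the design name ATAC-seq, in which a transposase inserts adapters into open chromatin, while the extract protocol in the labels describes an H3K27ac immunoprecipitation. The values are called accessibility here on the strength of the titles and the design.

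ABC transporters bind and hydrolyse ATP in a pair of cytoplasmic domains and use the energy to move substrates across a membrane. Subfamilies A and G carry mainly lipids and sterols, some members of B, C and G export drugs and conjugated metabolites, D members bring fatty acids into peroxisomes, and E and F members have no membrane domains and act in translation. In tumours the family is best known for the multidrug pumps ABCB1 (P-glycoprotein), ABCG2 (breast cancer resistance protein) and the ABCC multidrug resistance proteins, and in the lung for ABCA3, which loads surfactant lipids into the lamellar bodies of alveolar type II cells.

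Library totals over all counted regions were 3989287 to 5193390 counts for PC9, 6200672 to 10062505 for H1975, 1724680 to 4242868 for HCC827 and 3968690 to 8066287 for HCC2935. Levels are given as CPM, the count relative to the library total after scaling by trimmed mean of M-values (TMM), and all regions are equally wide, so levels of different regions are on one length. The spread between libraries of a group, relative to counting noise, was 0.959 to 1.04 in PC9, 0.966 to 1.22 in H1975, 1.18 to 1.83 in HCC2935 and 1.21 to 8.76 in HCC827. Because PC9 and H1975 libraries of a group differed by little more than counting noise, each contrast was also tested after summing a group's libraries, with the spread of HCC2935, and this value is given as the summed-library adjusted p where it ends a call. In some contrasts stretches of 10 Mb moved together, with medians of up to 1.55 in H1975, so a regional adjusted p, after removal of these medians, is likewise given where it ends a call. Fewer accessible cells and less accessibility per cell cannot be told apart in these bulk libraries. Promoter regions of the epithelial genes EPCAM, CDH1, KRT8, KRT18 and KRT19 were present in all 4 lines. Of the lung genes NKX2-1, SFTPB and NAPSA, NKX2-1 had promoter regions in all 4 lines, while SFTPB had none in PC9 and HCC2935 and NAPSA none in HCC827. Of the markers of other cell types, the fibroblast gene COL1A1 had promoter regions in all 4 lines (means of 17.1 to 22.8 CPM), the endothelial gene PECAM1 in PC9, H1975 and HCC827 (3.53 to 4.70 CPM), the T cell gene CD3E in PC9 and HCC2935 (3.36 and 6.65 CPM) and the leukocyte gene PTPRC in none, and their part in the results was not tested.

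Changes are log2 fold changes with their standard error (SE). The adjusted p is from edgeR's quasi-likelihood test with Benjamini-Hochberg adjustment over all regions tested in the line, and a region is called higher or lower where it is under 0.05. The background of a contrast is the share of all annotated regions of the same kind that was called in it. It is given with the counts over all ABC regions and over groups of genes, and the counts for single genes, which mix promoter and other regions, are to be read against the same shares.

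The promoter sequences shown are those of genes on which the results turn: ABCG2 and ABCC10, whose start regions answered AZD5153 in H1975, ABCC4, whose start differed between lines, ABCB1, the best known drug pump, and ABCA12 and ABCD2, which held large promoter changes. Each is 250 bases upstream of a RefSeq transcript start, read 5′ to 3′ on the gene's strand from the RefSeq promoter table (GRCh38.p14). Capitals mark matches on either strand to the GC box with the letters GGGCGG, the CCAAT box of these same letters, the E-box with CACGTG, the AP-1 site with TGANTCA, the TEAD site with GGAATG or the TATA box with TATAAA.
ABCG2 chr4:88158860-88159109, minus strand: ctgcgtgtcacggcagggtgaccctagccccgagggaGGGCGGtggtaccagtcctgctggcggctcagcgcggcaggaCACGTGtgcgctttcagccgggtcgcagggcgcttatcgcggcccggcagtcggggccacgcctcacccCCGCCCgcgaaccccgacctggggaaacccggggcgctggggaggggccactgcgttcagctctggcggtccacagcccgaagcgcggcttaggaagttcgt
ABCC10 chr6:43427613-43427862, plus strand: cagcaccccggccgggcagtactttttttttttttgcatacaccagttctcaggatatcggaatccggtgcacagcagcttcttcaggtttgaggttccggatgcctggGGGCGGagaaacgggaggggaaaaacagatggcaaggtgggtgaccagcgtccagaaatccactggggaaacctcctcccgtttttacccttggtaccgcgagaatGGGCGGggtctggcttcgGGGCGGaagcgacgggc
ABCC4 chr13:95301452-95301701, minus strand: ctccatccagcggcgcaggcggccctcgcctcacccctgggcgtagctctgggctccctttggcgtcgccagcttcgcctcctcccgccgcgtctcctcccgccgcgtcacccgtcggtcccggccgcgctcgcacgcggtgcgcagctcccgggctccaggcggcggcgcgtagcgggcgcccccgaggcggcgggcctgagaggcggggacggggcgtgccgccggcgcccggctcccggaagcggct
ABCB1 chr7:87600885-87601134, minus strand: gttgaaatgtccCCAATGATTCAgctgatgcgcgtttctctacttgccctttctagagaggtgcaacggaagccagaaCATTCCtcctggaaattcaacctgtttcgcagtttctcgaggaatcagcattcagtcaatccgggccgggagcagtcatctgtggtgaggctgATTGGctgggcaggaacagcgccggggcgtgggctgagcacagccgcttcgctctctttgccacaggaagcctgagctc
ABCA12 chr2:215138627-215138876, minus strand: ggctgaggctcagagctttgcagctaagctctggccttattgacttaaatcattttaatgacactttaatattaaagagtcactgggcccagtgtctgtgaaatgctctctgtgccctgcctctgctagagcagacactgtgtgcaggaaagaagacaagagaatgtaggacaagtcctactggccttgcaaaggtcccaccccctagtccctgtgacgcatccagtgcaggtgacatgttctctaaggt
ABCD2 chr12:39619804-39620053, minus strand: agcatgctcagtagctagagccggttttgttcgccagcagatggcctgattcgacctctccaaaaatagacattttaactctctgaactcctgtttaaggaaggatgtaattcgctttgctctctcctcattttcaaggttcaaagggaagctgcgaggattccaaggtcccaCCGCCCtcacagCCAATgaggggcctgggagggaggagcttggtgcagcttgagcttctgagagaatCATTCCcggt

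The ABCG2 window holds 2 GC boxes and 1 E-box, and the ABCC10 window holds 3 GC boxes. The ABCC4 and ABCA12 windows hold none of the 6 motifs. The ABCB1 window holds 2 CCAAT boxes, 1 AP-1 site and 1 TEAD site, and its first CCAAT box shares a base with the AP-1 site. The ABCD2 window holds 1 GC box, 1 CCAAT box and 1 TEAD site. The table gave 53 such windows for 35 ABC genes. Of these windows 47.2% held a GC box, against 42.6% of all 35116 windows. The other shares were 20.8% against 32% for the CCAAT box, 17% against 6.34% for the E-box, 9.43% against 6.57% for the AP-1 site, 22.6% against 11.9% for the TEAD site and 11.3% against 10.7% for the TATA box. Windows of 1 gene overlap, so these shares are descriptions.

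The first comparison was of DTP cells with control cells, the persistence state against untreated cells. In PC9, 36 of 94 promoter regions were called, 12 higher and 24 lower, where the background was 29.6%, 15.1% higher and 14.5% lower. Of the 80 other regions 21 were higher and 28 lower, against a background of 47.1% called, 18% higher and 29% lower. In H1975, 18 of 91 promoter regions were higher and 39 lower, against a background of 53% called, 26% higher and 27% lower. Of the 100 other regions of H1975 22 were higher and 62 lower, against 71% called, 25.5% higher and 45.5% lower. The median change of these 100 was -0.87, where that of all annotated other regions of H1975 was -0.22. In HCC2935, 10 of 64 promoter regions were higher and 13 lower, against a background of 36.1%, 20.8% higher and 15.3% lower, and 23 of 106 other regions were higher and 33 lower, against 52.4%, 25.5% higher and 26.9% lower. The share called was 38.3% of promoter and 61.2% of other ABC regions in PC9, 62.6% and 84% in H1975 and 35.9% and 52.8% in HCC2935, above the background in PC9 and H1975 and close to it in HCC2935.

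In HCC827 no ABC region was called by edgeR or DESeq2 in DTP against control. The background, at an adjusted p under 0.05, was 0.00612% of promoter and 0.105% of other regions. At an unadjusted p under 0.05, 2 of 31 promoter and 4 of 24 other ABC regions passed. The share of all annotated regions passing unadjusted was not counted, so these counts have no background here. Libraries of HCC827 with the same replicate number deviated together (r = 0.261 to 0.828 over 9 pairs), so the replicate number was also fitted as a block. With the block 2 promoter and 2 other regions were lower and none higher, against backgrounds of 2.17% and 7.2% called in either direction.

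Other regions changed more than promoter regions in each line. The median size of the DTP change, without its sign, was 0.31 for promoter and 0.62 for other regions in PC9, 0.42 and 1.23 in H1975, 0.26 and 0.61 in HCC2935 and 0.30 and 0.42 in HCC827. The same medians over all annotated regions were 0.27 and 0.49 in PC9, 0.36 and 0.72 in H1975, 0.36 and 0.61 in HCC2935 and 0.26 and 0.36 in HCC827.

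**Figure D1:**
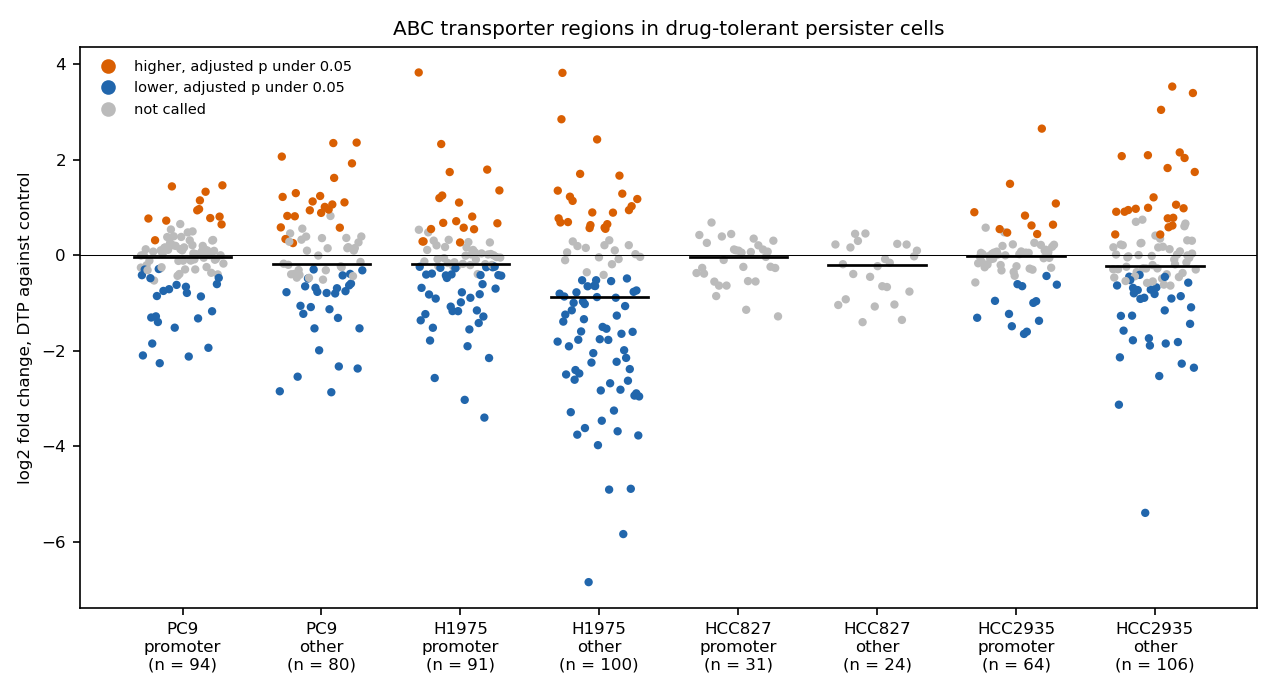
Log2 change of accessibility in DTP against control for each ABC region (y axis), in 8 columns of promoter and other regions for each line, with called regions coloured and the median of each column as a black line. The other regions of H1975 spread widest and have the lowest median (-0.87), and no region of HCC827 is coloured because none was called there without the replicate block.

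Among the drug efflux pumps of the list, promoter regions were found for 6 genes of PC9, 7 of H1975, 4 of HCC827 and 6 of HCC2935. In DTP cells 2 of their 23 promoter regions in PC9 were higher and 6 lower, 6 of 25 in H1975 were higher and 13 lower, and 2 of 15 in HCC2935 were higher and 3 lower. The background of promoter regions was 15.1% higher and 14.5% lower in PC9, 26% and 27% in H1975 and 20.8% and 15.3% in HCC2935, so that the higher count of H1975 was near it. Of their other regions 10 of 22 fell in PC9, 27 of 35 in H1975 and 9 of 33 in HCC2935, against 29%, 45.5% and 26.9% called lower, while 2, 2 and 5 rose, against 18%, 25.5% and 25.5%.

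ABCC3 exports bile acids and glucuronide conjugates and had more regions than any other pump in PC9 (17), with 16 in H1975, 11 in HCC827 and 13 in HCC2935. Its strongest promoter region (chr17:50661743-50662244 in H1975) lies 27.1 kb inside the gene, at an internal transcript start. In H1975 this region measured 20.9, 22.96 and 24.3 CPM in control, 10.1, 11.1 and 9.39 in DTP, 17.6, 15.7 and 17.7 in combo and 21.3, 25.8 and 21.1 in AZD5153-alone libraries. All DTP libraries lay below all others, and the combo libraries lay between DTP and control. The change in DTP was -1.16 (SE 0.11, adjusted p = 5.5e-21), and combo rose again against DTP (log2 change 0.74, SE 0.11, adjusted p = 2.3e-08).

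In PC9 the matching region measured 19.3, 16.8 and 18.5 CPM in control, 21.996, 23.2 and 22.3 in DTP, 38.004, 37.7 and 39.01 in combo and 23.2, 21.5 and 29.7 in AZD5153-alone libraries. The combo libraries stood above every other library, with a change against DTP of 0.77 (SE 0.10, adjusted p = 4.7e-12). AZD5153 alone raised it (log2 change 0.45, SE 0.11, adjusted p = 7.7e-04, summed-library adjusted p = 0.23), which was lost without AZD5153 replicate 3 (0.32, adjusted p = 0.066). The smaller DTP change in PC9, 0.31 (SE 0.12, adjusted p = 0.033, summed-library adjusted p = 0.43), was lost without any 1 of DTP replicates 1, 2 and 3 and control replicates 2 and 3 (adjusted p = 0.056 to 0.18).

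In HCC2935 the region measured 12.6, 14.2 and 14.5 CPM in control, 19.3, 18.1 and 18.3 in DTP and 19.9, 28.3 and 16.6 in combo libraries. Its DTP change was 0.44 (SE 0.17, adjusted p = 0.034, summed-library adjusted p = 0.12, regional adjusted p = 0.067), and the call was lost without DTP replicate 1 (adjusted p = 0.059) or control replicate 1 (adjusted p = 0.12). In HCC827 control libraries measured 16.3, 29.1 and 22.1 CPM, DTP libraries 11.5, 13.1 and 18.2 and combo libraries 10.6, 14.1 and 23.3, and the DTP change of -0.64 (SE 0.40, adjusted p = 0.97) was not called.

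Along ABCC3 the DTP changes of H1975 ran one way, with 11 of 16 regions lower and none higher. The largest was at chr17:50688165-50688666, where control libraries had 4.84, 4.09 and 4.82 CPM and DTP libraries 0.686, 0.304 and 0.300, a change of -3.402 (SE 0.34, adjusted p = 1.2e-18). The neighbouring region chr17:50684689-50685190 was more accessible and went from 18.3, 19.7 and 19.6 to 2.52, 2.43 and 2.10 CPM, a change of -3.03 (SE 0.15, adjusted p = 3.3e-49). Against DTP, 5 regions rose in combo and none fell, and 1 was higher with summed libraries. Of all annotated regions 25.8% of promoter and 18.6% of other regions rose in this contrast. The promoter region at the RefSeq start of ABCC3 (chr17:50634552-50635053 in H1975) was not called in DTP and rose with AZD5153 alone, 1.27 (SE 0.23, adjusted p = 3.8e-07).

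In PC9, 7 of the 17 ABCC3 regions were lower in DTP and 2 higher, and 3 and 0 with summed libraries. The region chr17:50631792-50632293, centred 2.8 kb before the gene, held 5.59, 8.32 and 9.92 CPM in control libraries and 1.75, 1.86 and 1.41 in DTP libraries, a change of -2.26 (SE 0.28, adjusted p = 9.9e-14). It also fell with AZD5153 alone, -1.08 (SE 0.22, adjusted p = 2.6e-05). In HCC2935, 2 of 13 ABCC3 regions were higher and 2 lower in DTP, and 0 and 1 with summed libraries. The RefSeq start region of HCC2935 fell from 10.9, 10.5 and 11.3 CPM in control to 6.48, 7.32 and 7.60 in DTP libraries, -0.61 (SE 0.19, adjusted p = 0.011, summed-library adjusted p = 0.08), and its later rise in combo was lost without any 1 of the 6 DTP and combo libraries (adjusted p = 0.062 to 0.16).

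In HCC827 ABCC3 held 3 of the 4 regions called with the replicate block. The intron region chr17:50638460-50638961 went from 15.7, 15.6 and 26.9 CPM in control to 7.38, 5.44 and 9.44 in DTP libraries, -1.38 (SE 0.30, adjusted p = 0.0093) with the block. The promoter regions chr17:50684684-50685185 and chr17:50686494-50686995 changed by -1.31 (SE 0.34, adjusted p = 0.03) and -1.20 (SE 0.33, adjusted p = 0.045). Control and DTP libraries did not overlap in any of the 3. Without the block the 3 regions and an ABCC12 intron region had adjusted p of 0.368 to 0.645.

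**Figure D2:**
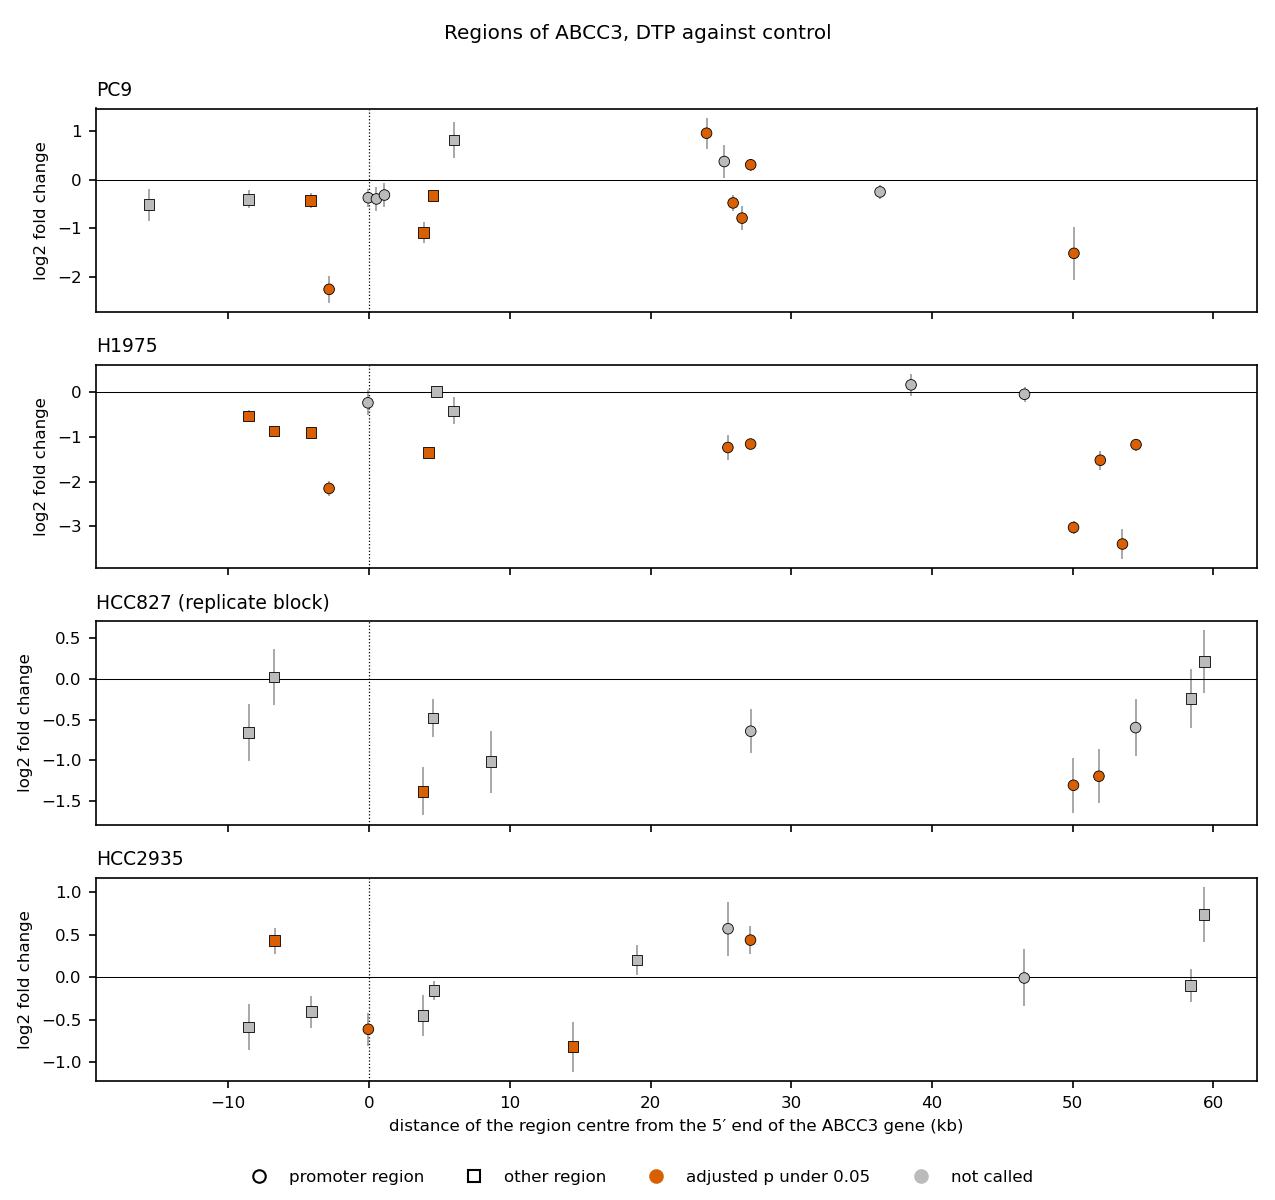
Log2 change of accessibility in DTP against control (y axis, bars ± SE, a separate scale in each panel) of the ABCC3 regions of each line by distance in kb from the RefSeq 5′ end of the gene (x axis). All called regions of H1975 lie below 0, PC9 and HCC2935 hold called regions on both sides, and the HCC827 panel shows the fit with the replicate block.

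ABCG2 exports a wide range of drugs, tyrosine kinase inhibitors among them, as well as urate. H1975 had a pair of regions at its start that overlap the printed window. The first (chr4:88158380-88158881) measured 6.22, 7.09 and 6.02 CPM in control, 3.66, 3.95 and 4.99 in DTP, 4.34, 3.90 and 4.82 in combo and 14.3, 12.9 and 10.8 in AZD5153-alone libraries. Every AZD5153-alone library was above, and every DTP and combo library below, the control libraries. The DTP change was -0.61 (SE 0.18, adjusted p = 0.0019), the AZD5153-alone change 0.96 (SE 0.14, adjusted p = 5.8e-10), and the combo against DTP change was 0.05 (SE 0.19, adjusted p = 0.89).

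The second ABCG2 start region of H1975 (chr4:88158993-88159494) measured 5.53, 6.73 and 5.66 CPM in control, 2.40, 3.55 and 2.50 in DTP, 3.99, 5.35 and 4.31 in combo and 13.4, 13.7 and 11.9 in AZD5153-alone libraries. It fell in DTP (log2 change -1.08, SE 0.20, adjusted p = 6.0e-07) and rose with AZD5153 alone (log2 change 1.10, SE 0.14, adjusted p = 2.6e-12). Combo exceeded DTP with 0.68 (SE 0.20, adjusted p = 0.0078, summed-library adjusted p = 0.14), a call lost without DTP replicate 1 or 3 or combo replicate 2 (adjusted p = 0.050 to 0.080). All 6 ABCG2 regions of H1975 were lower in DTP. The strongest fall was in intron region chr4:88144888-88145389, from 9.27, 7.69 and 5.66 CPM to 0.572, 0.709 and 0.499, -3.62 (SE 0.27, adjusted p = 1.6e-28). That intron region was also low with AZD5153 alone, -2.88 (SE 0.25, adjusted p = 1.1e-22), so start and intron regions of the gene moved in opposite directions with AZD5153.

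In PC9 the ABCG2 start region (chr4:88158998-88159499) stayed between 4.72 and 8.56 CPM over all 12 libraries, and none of its 4 contrasts was called. Of 5 ABCG2 regions in PC9 1 rose in DTP, the intron region chr4:88178204-88178705, with a change of 0.95 (SE 0.25, adjusted p = 0.0012). In HCC827 and HCC2935 the ABCG2 start regions were counted but are outside the annotated tables, with 1.63 to 9.47 CPM and 0.499 to 3.68 CPM in the region nearest the RefSeq start. In HCC2935 the intron regions chr4:88144891-88145392 and chr4:88178174-88178675 rose in DTP with changes of 0.99 (SE 0.18, adjusted p = 2.4e-05) and 0.91 (SE 0.23, adjusted p = 0.0015, regional adjusted p = 0.19).

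ABCC10 exports taxanes and other lipophilic drugs. Its start region overlaps the printed window and in H1975 (chr6:43427278-43427779) measured 10.8, 12.9 and 11.1 CPM in control, 12.5, 15.8 and 13.98 in DTP, 15.8, 17.04 and 15.95 in combo and 30.7, 24.9 and 23.9 in AZD5153-alone libraries. The AZD5153-alone libraries stood above all others, 1.19 (SE 0.11, adjusted p = 1.6e-22) against control. In PC9 the same contrast gave -0.29 (SE 0.12, adjusted p = 0.057), which was not called. The DTP change of H1975, 0.28 (SE 0.12, adjusted p = 0.034, summed-library adjusted p = 0.39), was lost without DTP replicate 2 or 3 or control replicate 1 or 3 (adjusted p = 0.054 to 0.19). PC9, HCC827 and HCC2935 start regions of ABCC10 were not called in DTP or combo.

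ABCC4 exports cyclic nucleotides and prostaglandins. Its start region rose in HCC2935 DTP cells (chr13:95301372-95301873), from 5.55, 7.99 and 3.95 CPM in control to 9.80, 11.7 and 9.38 in DTP, and combo libraries measured 12.5, 11.6 and 11.6. Control and DTP libraries did not overlap, and the change was 0.83 (SE 0.22, adjusted p = 0.0023). In PC9 the start region measured 4.83, 8.52 and 7.14 CPM in control and 6.62, 5.79 and 7.23 in DTP, and in HCC827 9.40, 10.4 and 18.4 and 12.9, 9.80 and 14.4, neither called. In H1975 control libraries measured 17.6, 14.3 and 16.3 CPM and DTP libraries 13.2, 12.5 and 14.2, and that small difference, -0.27 (SE 0.11, adjusted p = 0.03, summed-library adjusted p = 0.34), was lost without DTP replicate 1 or 2 or control replicate 1 or 3 (adjusted p = 0.087 to 0.19).

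Away from its start ABCC4 held the largest called pump fall in H1975. Its intron region chr13:95099518-95100019 went from 18.4, 16.9 and 15.3 CPM in control to 0.457, 0.101 and 0.300 in DTP, -5.84 (SE 0.25, adjusted p = 5.0e-60), and AZD5153-alone libraries measured 3.34, 2.02 and 2.34. Of 19 ABCC4 regions in H1975, 14 were lower and 1 higher in DTP, and 17 lower and 1 higher with AZD5153 alone. With summed libraries 12 were lower and 0 higher in DTP, and 14 lower and 1 higher with AZD5153 alone. The 1 higher region with AZD5153 alone lies at the start (chr13:95300644-95301145), where control libraries had 1.52, 1.20 and 2.05 CPM and AZD5153-alone libraries 7.73, 6.38 and 6.63, 2.11 (SE 0.23, adjusted p = 1.6e-16). In PC9, 4 of 7 and in HCC2935 6 of 14 ABCC4 regions were lower in DTP, and 3 and 4 with summed libraries.

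ABCC5 also exports cyclic nucleotides and nucleotide analogues. In PC9 its start region measured 27.7, 34.1 and 36.5 CPM in control and 36.8, 36.2 and 33.5 in DTP libraries, and in HCC2935 14.4, 18.5 and 13.4 and 15.7, 19.1 and 14.4, neither called. In H1975 (chr3:184017749-184018250) it rose from 20.6, 21.99 and 22.3 to 25.2, 25.8 and 26.96 CPM in DTP, 0.26 (SE 0.09, adjusted p = 0.008, summed-library adjusted p = 0.4). An intron region of the gene moved far more. In HCC2935 chr3:183925009-183925510 went from 10.7, 7.24 and 9.997 CPM to 0, 0.276 and 0.323 in DTP, -5.40 (SE 0.45, adjusted p = 2.6e-13). The matching region of PC9 fell with AZD5153 alone from 4.83, 5.48 and 4.56 to 0.576, 0.371 and 0.564 CPM, -3.24 (SE 0.43, adjusted p = 7.1e-12). In H1975 the intron region chr3:183935936-183936437 rose in DTP from 0.277, 0.481 and 0.602 to 6.29, 6.38 and 7.29 CPM, 3.81 (SE 0.30, adjusted p = 7.7e-27).

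ABCB1, the broad-specificity pump P-glycoprotein, had a promoter region in HCC2935 alone among the annotated tables. It lies at chr7:87503987-87504488, 209.1 kb from the RefSeq 5′ end of the gene and near an annotated downstream transcript start. It measured 6.85, 8.99 and 3.16 CPM in control, 1.74, 2.21 and 2.10 in DTP and 1.42, 1.35 and 1.38 in combo libraries, and fell in DTP (log2 change -1.65, SE 0.31, adjusted p = 3.8e-05). The deposited peak lists had a peak there in 3 of 3 control, 2 of 3 DTP and 0 of 3 combo libraries. The HCC2935 region over the printed ABCB1 window is outside the annotated table and measured 0.474 to 1.11 CPM.

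Other regions named for ABCB1 rose in DTP cells. The first, chr7:87564219-87564720 of HCC2935, lies in an intron of the gene. The second, chr7:87767789-87768290, lies outside ABCB1, before its RefSeq 5′ end. In HCC2935 they measured 3.89, 3.49 and 3.95 and 1.85, 2.995 and 1.05 CPM in control, and 8.22, 8.56 and 9.54 and 10.6, 6.63 and 7.92 in DTP. Their changes were 1.21 (SE 0.25, adjusted p = 1.2e-04) and 2.07 (SE 0.31, adjusted p = 8.5e-07). The matching region of the first rose in H1975 (log2 change 1.28, SE 0.20, adjusted p = 9.9e-09). That of the second, likewise outside the gene, rose in PC9 by 1.24 (SE 0.30, adjusted p = 3.2e-04). In HCC827 the first changed by 0.22 (SE 0.59, adjusted p = 1), which was not called.

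ABCC2 exports conjugated bilirubin from hepatocytes, and ABCC11 exports conjugated steroids. The strongest ABCC2 promoter region was not called in DTP or combo in PC9, H1975 or HCC2935, with levels of 6.07 to 13.2 CPM over all libraries of these lines. The AZD5153-alone change of PC9, -0.49 (SE 0.18, adjusted p = 0.031, summed-library adjusted p = 0.24), was lost without any 1 of 5 of the 6 libraries compared (AZD5153 replicates 1 to 3 and control replicates 1 and 2, adjusted p = 0.051 to 0.18). Over all 7 ABCC2 regions of H1975, 5 were lower and 1 higher in DTP, and likewise with AZD5153 alone. With summed libraries 4 were lower and 1 higher in DTP, and 3 lower and 0 higher with AZD5153 alone. The DTP changes of these regions ran from -2.63 to 1.74. In PC9 0 of 2 and in HCC2935 0 of 5 ABCC2 regions were called in DTP. ABCC11 had a promoter region in H1975 alone, with 5.53, 4.69 and 3.98 CPM in control and 2.999, 2.02 and 3.06 with AZD5153 alone, -0.76 (SE 0.22, adjusted p = 0.0017). It fell from 3.32, 4.86 and 5.69 CPM in DTP to 2.46, 2.90 and 2.71 in combo, -0.79 (SE 0.21, adjusted p = 0.0021, summed-library adjusted p = 0.082), a call lost without DTP replicate 3 (-0.61, adjusted p = 0.067). None of the member regions of ABCC1, an exporter of glutathione conjugates, was a promoter region. Its 1 intron region in H1975 (chr16:16021914-16022415) fell in DTP (log2 change -1.07, SE 0.31, adjusted p = 0.0019) and rose with AZD5153 alone (log2 change 0.83, SE 0.23, adjusted p = 0.0012).

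**Figure D3:**
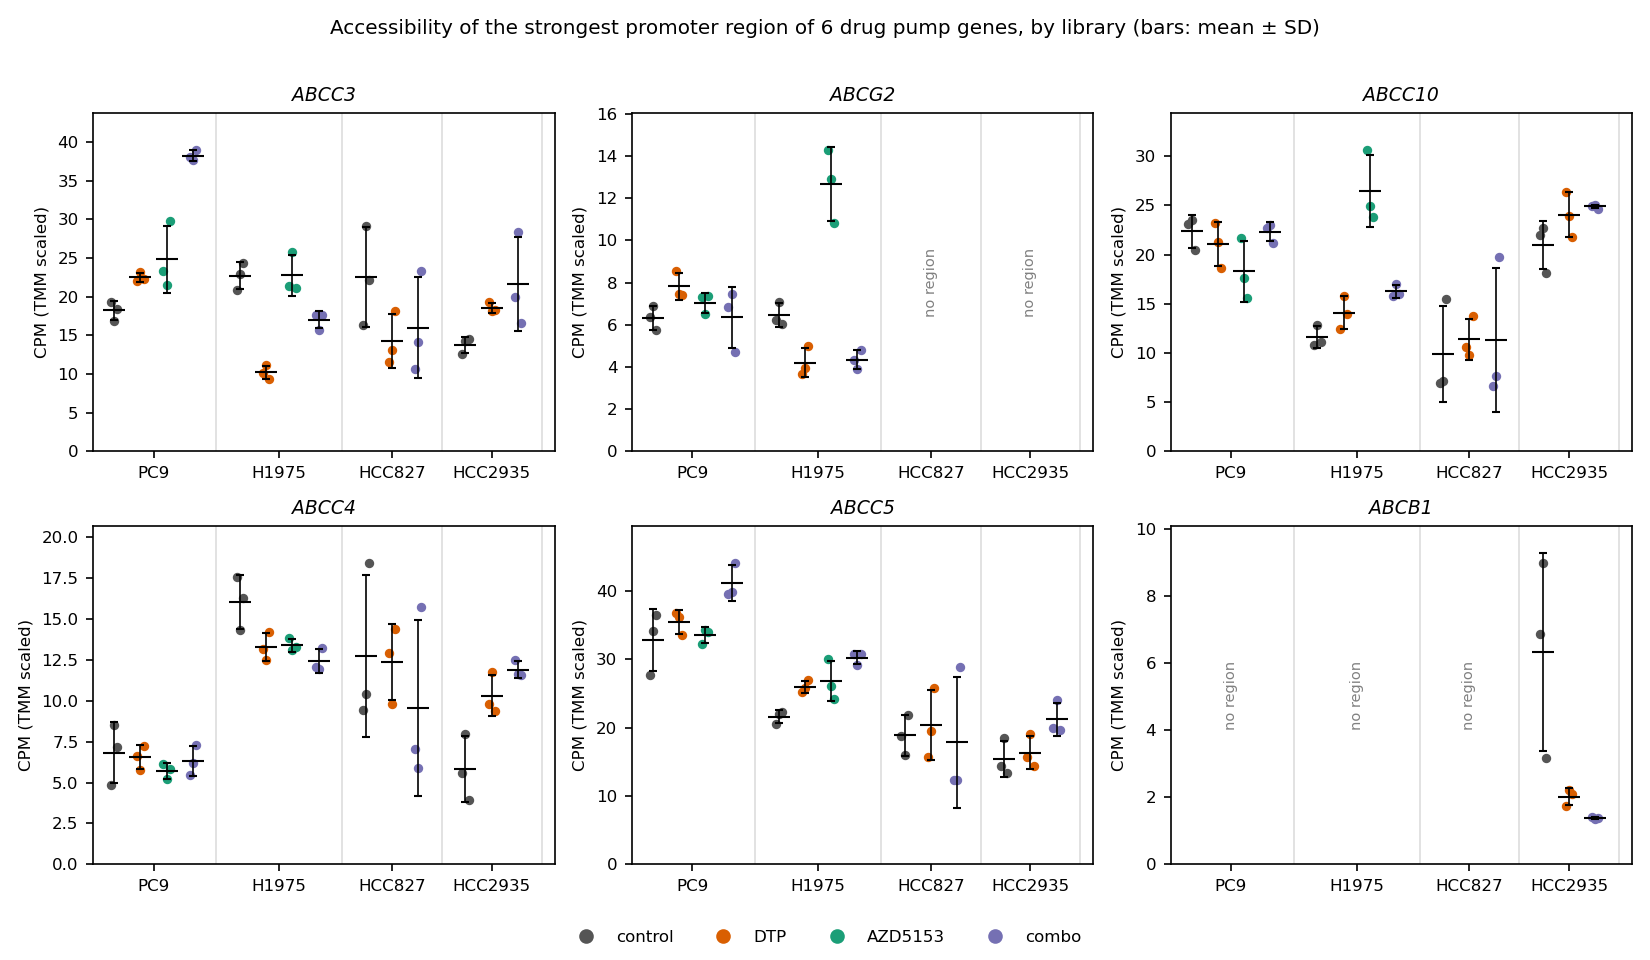
Level in CPM of every library (points, y axis) in the strongest promoter region of ABCC3, ABCG2, ABCC10, ABCC4, ABCC5 and ABCB1 by line and group (x axis), with the mean ± SD of 3 libraries. The AZD5153-alone libraries of H1975 stand above the others for ABCG2 and ABCC10, the combo libraries of PC9 for ABCC3, and ABCB1 has a region in HCC2935 alone.

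Lipid and sterol transporters formed the largest group in PC9, H1975 and HCC2935, with 36 promoter and 42 other regions, 27 and 42, and 22 and 46. In HCC827 they had 7 and 4, and the pumps had 7 and 13. In DTP cells 7 promoter regions of PC9 rose and 7 fell, 3 rose and 9 fell in H1975, and 3 rose and 4 fell in HCC2935. Of their other regions 14 rose and 14 fell in PC9, 11 rose and 22 fell in H1975 and 10 rose and 12 fell in HCC2935. The background of promoter regions was 15.1% higher and 14.5% lower in PC9, 26% and 27% in H1975 and 20.8% and 15.3% in HCC2935, and that of other regions 18% and 29%, 25.5% and 45.5%, and 25.5% and 26.9%. The counts of the other regions of H1975 and HCC2935 were near these shares.

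ABCA1, which hands cholesterol to apolipoprotein A-I, held large changes inside the gene and before it. Its intron 7 region was lower in DTP in PC9, H1975 and HCC2935. In H1975 (chr9:104854514-104855015) it went from 6.50, 5.53 and 5.06 CPM in control to 0.114, 0.203 and 0.200 in DTP, and AZD5153-alone libraries were as low, at 0, 0.467 and 0.204. In PC9 it went from 2.80, 7.91 and 6.75 to 0.973, 1.03 and 0.402 CPM in DTP and 0.576, 0.186 and 0.753 with AZD5153 alone. The DTP changes were -4.91 (SE 0.39, adjusted p = 1.5e-26) in H1975, -2.87 (SE 0.37, adjusted p = 1.2e-12) in PC9 and -1.16 (SE 0.21, adjusted p = 2.2e-05) in HCC2935.

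An internal ABCA1 promoter region (chr9:104829868-104830369) was opened in H1975 DTP cells. It measured 0.692, 0.361 and 0.482 CPM in control, 7.89, 6.99 and 7.09 in DTP, 6.80, 5.90 and 7.42 in combo and 0.346, 0 and 0.306 in AZD5153-alone libraries. The DTP change was 3.82 (SE 0.29, adjusted p = 1.3e-28), the largest rise among the ABC promoter regions of H1975. In HCC2935 the intergenic region chr9:104944980-104945481, 16825 bases before a transcript start, rose from 0.555, 0 and 0.526 to 5.06, 3.45 and 5.34 CPM, 3.53 (SE 0.49, adjusted p = 1.1e-07).

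ABCA4, a retinoid transporter of photoreceptors, had 18 regions in PC9, of which 8 rose and 6 fell in DTP, and 5 and 4 with summed libraries. The intergenic region chr1:93964712-93965213 fell from 22.4, 27.8 and 21.4 to 4.48, 3.93 and 3.81 CPM, -2.55 (SE 0.17, adjusted p = 2.0e-42). The intron 6 region chr1:94090677-94091178 rose from 1.53, 1.22 and 2.18 to 6.81, 12.002 and 7.03 CPM in DTP and to 8.64, 10.95 and 12.98 with AZD5153 alone. Its changes were 2.35 (SE 0.28, adjusted p = 5.6e-15) and 2.70 (SE 0.26, adjusted p = 6.7e-22). The promoter region chr1:94061892-94062393 rose in DTP (log2 change 1.46, SE 0.25, adjusted p = 1.2e-07).

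ABCA12 carries glucosylceramide into the lamellar granules of keratinocytes. Its promoter region chr2:215136992-215137493 in H1975, 1.4 kb inside the gene, measured 6.64, 8.41 and 7.59 CPM in control, 3.20, 3.95 and 2.90 in DTP, 5.86, 3.68 and 4.62 in combo and 0.346, 0.311 and 0.306 in AZD5153-alone libraries. AZD5153 alone lowered it (log2 change -4.50, SE 0.32, adjusted p = 1.3e-31). In PC9 the same region fell with AZD5153 alone from 2.80, 2.64 and 2.98 to 0.768, 0.928 and 1.32 CPM, -1.46 (SE 0.40, adjusted p = 0.0024). In HCC2935 a region over the printed ABCA12 window (chr2:215138406-215138907) went from 14.9, 13.1 and 11.6 CPM in DTP to 8.85, 5.52 and 5.35 in combo, -1.01 (SE 0.19, adjusted p = 2.6e-04). The intron region chr2:215071607-215072108 of HCC2935 fell in combo (log2 change -1.80, SE 0.24, adjusted p = 7.7e-07).

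ABCA13, the longest protein of the family, had an intron 37 region in H1975 (chr7:48389909-48390410) that was nearly closed in treated cells. Control libraries measured 16.04, 12.4 and 12.9 CPM, DTP libraries 1.26, 2.33 and 1.60 and AZD5153-alone libraries 0.461, 0.156 and 0.204. The AZD5153-alone change was -5.54 (SE 0.28, adjusted p = 1.7e-49). In PC9 the intron 43 region chr7:48458982-48459483 fell with AZD5153 alone, from 7.37, 6.09 and 7.54 to 0.576, 0 and 1.13 CPM, with a change of -3.57 (SE 0.36, adjusted p = 2.0e-19), while DTP libraries measured 12.7, 16.1 and 11.4 and combo libraries 10.2, 11.1 and 6.64.

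ABCA7, a phospholipid transporter related to ABCA1, had a promoter region before the gene that rose in H1975 DTP cells (chr19:1037957-1038458), from 1.38, 1.92 and 1.93 to 9.15, 8.51 and 8.99 CPM, 2.32 (SE 0.20, adjusted p = 8.4e-23). ABCA3 had a start region of 16.6 CPM on average in PC9 and 19.3 CPM in H1975, and its intron 1 region in PC9 (chr16:2333960-2334461) rose with AZD5153 alone from 1.02, 2.64 and 2.38 to 6.72, 7.80 and 10.2 CPM, 1.97 (SE 0.26, adjusted p = 8.2e-12). ABCA9, a member of a lipid transporter cluster on chromosome 17, had a promoter region that rose in DTP in PC9 (log2 change 1.33, SE 0.22, adjusted p = 8.1e-08) and in HCC2935 by 1.08 (SE 0.20, adjusted p = 2.3e-05). ABCG1, which passes cholesterol to high-density lipoprotein, had an intron region in H1975 (chr21:42227960-42228461) that rose with AZD5153 alone from 5.67, 5.41 and 4.94 to 10.5, 11.2 and 9.07 CPM and fell in combo against DTP from 6.52, 6.79 and 6.49 to 3.3996, 2.90 and 2.41, -1.19 (SE 0.18, adjusted p = 4.9e-08).

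Of the promoter regions of mitochondrial members 0 of 7 rose and 3 fell in PC9 DTP cells, 3 of 10 rose and 3 fell in H1975, and 1 of 9 rose and 2 fell in HCC2935. The background of promoter regions was 15.1% higher and 14.5% lower in PC9, 26% and 27% in H1975 and 20.8% and 15.3% in HCC2935, and the H1975 counts were near it. ABCB10, an inner-membrane transporter linked to haem synthesis, had start region levels of 20.6, 25.4 and 25.2 CPM in PC9 control and 25.1, 24.2 and 24.3 in DTP libraries, and its DTP change was between -0.10 and 0.04 and not called in any line. ABCB8, a second inner-membrane member, had a promoter region in H1975 (chr7:151032861-151033362) of 13.3, 14.8 and 13.1 CPM in control and 4.38, 5.60 and 5.10 with AZD5153 alone. Combo libraries of that region measured 9.14, 7.46 and 7.42 CPM against 15.2, 12.5 and 14.1 in DTP, -0.80 (SE 0.12, adjusted p = 4.0e-08). In HCC2935 the ABCB8 promoter region chr7:151040528-151041029 fell in DTP (log2 change -1.60, SE 0.32, adjusted p = 1.0e-04).

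Of the promoter regions of peroxisomal members 2 of 10 rose and 1 fell in PC9 DTP cells, 3 of 7 rose and 3 fell in H1975, and 0 of 2 were called in HCC2935, against the same background shares. The start region of ABCD2, which takes up very long-chain fatty acids, overlaps the printed window and rose in H1975 DTP cells (chr12:39619791-39620292). It went from 1.38, 1.68 and 1.20 CPM in control to 4.35, 5.68 and 4.79 in DTP, 1.79 (SE 0.25, adjusted p = 6.1e-11). ABCD3, an abundant peroxisomal membrane protein, had a PC9 promoter region (chr1:94417289-94417790) that fell with AZD5153 alone from 5.09, 5.07 and 4.56 to 1.54, 1.67 and 1.51 CPM, -1.62 (SE 0.31, adjusted p = 4.9e-06).

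Promoter regions of the translation factors ABCF2 and ABCF3 were called in DTP in H1975, with 1 of 3 higher and 1 lower, and 0 of 3 were called in PC9 and 0 of 2 in HCC2935, too few regions to be set against the background. The ABCF2 start region averaged 38.1 CPM for PC9, 46.5 for H1975, 32.7 for HCC827 and 52.9 for HCC2935, and its DTP changes were 0.07, -0.24, 0.30 and -0.21. The H1975 value alone was called, with an adjusted p of 0.0012 and a summed-library adjusted p of 0.35. ABCF3 start changes in DTP lay between -0.18 and 0.17 and were not called. Of the channel regulators, ABCC9, a subunit of ATP-sensitive potassium channels, had an intergenic region in PC9 (chr12:21962149-21962650) that was highest in DTP. It measured 1.27, 1.83 and 2.58 CPM in control, 10.9, 10.8 and 8.23 in DTP, 2.35, 1.49 and 0.857 in combo and 2.69, 1.86 and 3.01 in AZD5153-alone libraries. It rose in DTP (log2 change 2.34, SE 0.26, adjusted p = 3.7e-17) and fell in combo (log2 change -2.63, SE 0.26, adjusted p = 5.4e-19).

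Of the remaining members, ABCB9, a lysosomal peptide transporter, fell in DTP at 5 of 7 regions in PC9, 6 of 9 in H1975 and 2 of 5 in HCC2935, and none of its regions rose there. With summed libraries 3, 3 and 1 were lower. Nearly all are promoter regions, of which 14.5%, 27% and 15.3% were called lower in these lines. The PC9 region chr12:122944538-122945039 went from 10.2, 9.74 and 10.1 to 2.53, 1.24 and 3.01 CPM, -2.12 (SE 0.24, adjusted p = 1.1e-15). The H1975 region chr12:122964405-122964906 went from 13.6, 13.3 and 15.7 to 2.17, 2.63 and 2.30 CPM, -2.57 (SE 0.17, adjusted p = 3.9e-36). ABCC12, a little-studied relative of ABCC11, held 8 of 12 lower regions in H1975 and 7 of 12 in HCC2935, and 8 and 5 with summed libraries. Its intron 8 region of H1975 (chr16:48129833-48130334) went from 4.56, 5.77 and 6.51 CPM in control to 0.114, 0 and 0 in DTP, the last being 1 count over the 3 libraries, with an adjusted p of 1.1e-29. The matching region of HCC2935 fell from 14.1, 8.24 and 11.8 to 1.74, 1.93 and 2.26 CPM, -2.53 (SE 0.27, adjusted p = 2.2e-10). ABCB11, the bile salt export pump, mostly fell in HCC2935 DTP cells, with falls at 5 and rises at 2 of its 8 regions. Summing libraries left 3 falls and 2 rises. The rises were in intron 17 and intron 5, with changes of 3.39 (SE 0.33, adjusted p = 1.9e-11) and 3.04 (SE 0.47, adjusted p = 1.1e-06). A promoter region was among the falls (log2 change -1.49, SE 0.19, adjusted p = 3.1e-08). ABCC13, which makes no complete transporter, rose at its start in DTP in PC9, with a change of 1.44 (SE 0.28, adjusted p = 7.2e-06) and in HCC2935, with a change of 1.49 (SE 0.30, adjusted p = 1.0e-04).

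Regions were then matched between PC9, H1975 and HCC2935 by a reciprocal overlap of at least 50%, which gave 68 ABC regions in all 3 tables. In DTP against control 10 of them were lower in all 3 lines, where the background was 6.11% of 34003 matched regions. None was higher in all 3, where the background was 2.39%, and 2 were called in all 3 with mixed signs. Of 36 matched promoter regions 3 were lower in all 3 lines, against 3.07%, and of 32 other regions 7 were, against 10.1%. In each line all control libraries of these 10 regions lay above all DTP libraries. The regions were chosen by their calls in these same libraries, so this is a description and no further support.

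The promoter regions among them belong to ABCB9, ABCC4 and ABCA7. The ABCC4 region, centred 2.0 kb inside the gene, changed by -2.10 in PC9, -1.37 in H1975 and -0.62 in HCC2935. The HCC2935 call of this region was lost without any 1 of DTP replicates 1 and 3 and control replicates 1 to 3 (adjusted p = 0.053 to 0.24). The ABCA7 region changed by -1.33, -0.42 and -0.97, and lost its HCC2935 call without control replicate 3 (-0.72, adjusted p = 0.066). The ABCB9 region changed by -0.86, -0.48 and -0.44, and lost its HCC2935 call without DTP replicate 1 or 3 or control replicate 1 (adjusted p = 0.061 to 0.11). With summed libraries the adjusted p was above 0.05 for ABCB9 in H1975 (0.052) and HCC2935 (0.17), for ABCC4 in HCC2935 (0.099) and for ABCA7 in H1975 (0.098).

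The other shared regions include the ABCA1 intron 7 region and an intergenic region before ABCA1, which changed by -2.33, -2.90 and -0.92. The region near ABCA8, a lipid transporter of the chromosome 17 cluster, changed by -1.06, -3.29 and -0.80. An ABCC12 intron region changed by -0.80, -1.91 and -0.91, and a matching HCC827 region (chr16:48123058-48123559) was lower with the replicate block, -1.06 (SE 0.28, adjusted p = 0.035). A second ABCC12 intron region lost its HCC2935 call of -0.42 without DTP replicate 3 (adjusted p = 0.060) and with the median of its 10 Mb removed (adjusted p = 0.56). The ABCB11 intron region was no longer called in PC9 without DTP replicate 2 or control replicate 3 (adjusted p = 0.065 and 0.15), or in HCC2935 without DTP replicate 3 or control replicate 1 (adjusted p = 0.074 and 0.072). An ABCC5 region labelled as 3′ UTR changed by -0.30, -0.53 and -0.46, the PC9 call being lost without DTP replicate 3 (adjusted p = 0.058) or control replicate 1 (adjusted p = 0.051) and with the regional median removed (adjusted p = 0.055). With summed libraries the adjusted p was above 0.05 for ABCB11 in PC9 (0.18) and HCC2935 (0.14), for ABCC5 in PC9 (0.37) and HCC2935 (0.13) and for the second ABCC12 region in HCC2935 (0.17).

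**Figure D4:**
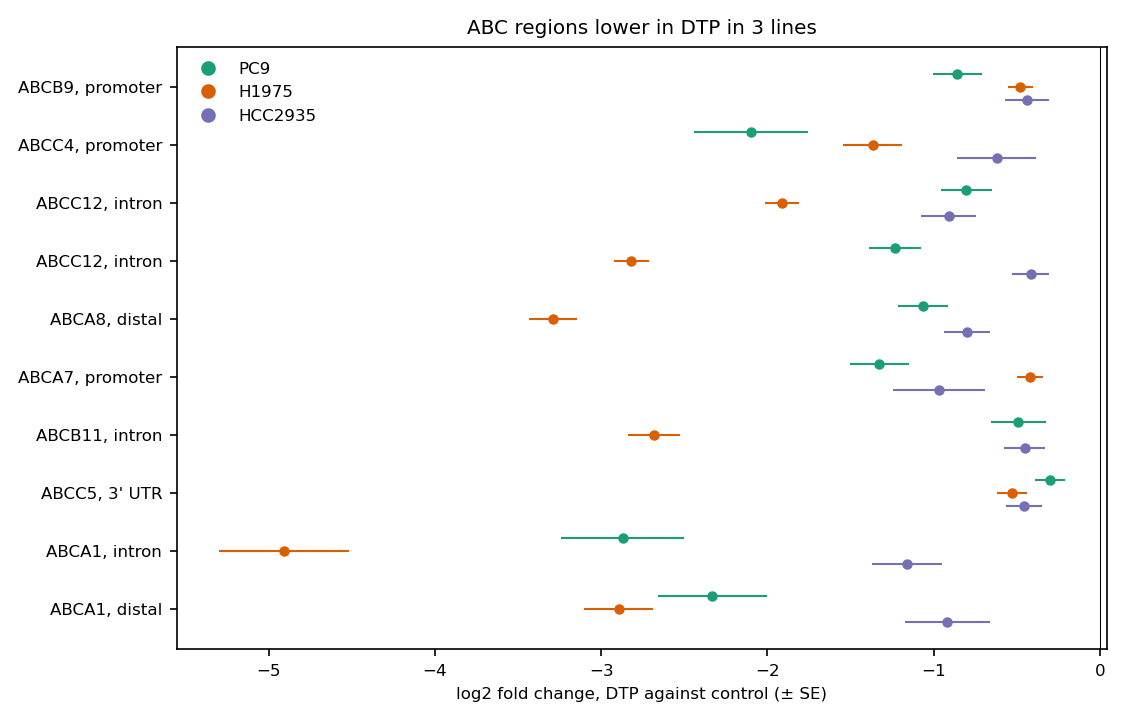
Log2 change in DTP against control (x axis, bars ± SE) of the 10 ABC regions called lower in PC9, H1975 and HCC2935. All 30 points lie left of 0 by the choice of regions, and the 2 ABCA1 regions reach -4.91 and -2.90 in H1975.

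The second comparison was of combo with DTP cells, which share the 21 days of osimertinib. If osimertinib was removed for the last 3 days, its removal and AZD5153 cannot be told apart in this contrast. In PC9, 13 of 94 promoter regions were higher and 11 lower, against a background of 27.5% called, 17.4% higher and 10.2% lower, and 9 of 80 other regions were higher and 23 lower, against 31.1%, 13.9% higher and 17.2% lower. In H1975, 11 of 91 promoter regions were higher and 13 lower, against 33.8% called, 25.8% higher and 7.96% lower, and 11 of 100 other regions were higher and 14 lower, against 31.5%, 18.6% higher and 12.9% lower. In HCC2935, 3 of 64 promoter regions were higher and 4 lower, against 10.7%, and 1 of 106 other regions was higher and 19 lower, against 15.2% called in either direction and 12.5% called lower. In HCC827 none was called by edgeR, with or without the replicate block, or by DESeq2, and 0 promoter and 2 other regions had an unadjusted p under 0.05. The background of HCC827, at an adjusted p under 0.05, was 0 without the block, and the share of all annotated regions passing unadjusted was not counted. Summing libraries left 8 promoter calls in PC9 and 4 in H1975.

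Of the promoter regions of the pumps 5 of 23 were higher and 1 lower in PC9 combo cells, and 5 of 25 higher and 1 lower in H1975, where the background was 17.4% higher and 10.2% lower in PC9 and 25.8% and 7.96% in H1975, so that the higher counts were near it. Besides ABCC3, the ABCC10 promoter region chr6:43436534-43437035 of PC9 fell from 1.95, 2.28 and 2.01 CPM in DTP to 0.588, 0.426 and 1.07 in combo, a call lost without combo replicate 2 (-1.30, adjusted p = 0.066). An intergenic ABCC4 region of PC9 (chr13:95314336-95314837) fell from 8.18, 9.73 and 9.44 to 2.74, 3.19 and 3.001 CPM, -1.61 (SE 0.23, adjusted p = 1.1e-09). The largest promoter fall in PC9 was at ABCB9 (chr12:122946760-122947261), from 10.3, 8.69 and 10.4 to 2.94, 2.98 and 1.71 CPM, -1.93 (SE 0.24, adjusted p = 3.3e-13). ABCA2, a transporter of lipids in myelin-forming cells, held the largest promoter rise in PC9 (chr9:137018248-137018749), from 2.73, 1.66 and 2.21 to 7.05, 5.96 and 4.07 CPM, 1.37 (SE 0.28, adjusted p = 4.1e-05). In H1975 the intergenic region chr2:169046747-169047248 before ABCB11 rose from 1.94, 1.93 and 2.40 to 5.16, 3.90 and 3.81 CPM, 1.02 (SE 0.22, adjusted p = 1.6e-04), after 9.96, 11.9 and 11.1 in control. In HCC2935 an ABCC4 intron region (chr13:95154475-95154976) fell from 6.01, 3.87 and 5.34 to 1.26, 0.736 and 3.11 CPM, -1.64 (SE 0.33, adjusted p = 6.0e-04).

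The third comparison was of AZD5153 alone with control, in PC9 and H1975. In PC9, 12 of 94 promoter regions were higher and 15 lower, against a background of 25.3% called, 11.6% higher and 13.7% lower, and 11 of 80 other regions were higher and 29 lower, against 39.9%, 17.3% higher and 22.6% lower. In H1975, 36 of 91 promoter regions were higher and 30 lower, against 69.3%, 39.9% higher and 29.5% lower, and 14 of 100 other regions were higher and 64 lower, against 74.7% called, 19.5% higher and 55.2% lower. Of the pump regions of H1975 11 of 25 promoter regions were higher and 10 lower, and 2 of 35 other regions higher and 29 lower, and all annotated regions likewise differed between promoter and other regions. In H1975 the median change of 10 Mb stretches of the genome ranged from -1.39 to 1.55 in this contrast, so large parts of chromosomes moved together. With these medians removed, 33 promoter regions were higher and 33 lower, and 17 other regions were higher and 55 lower.

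Last, the change in combo against DTP was compared with that in AZD5153 alone against control by an interaction term. The 2 contrasts share no libraries. The combo change may also hold a removal of osimertinib, which cannot be told apart from a different response to AZD5153 in DTP cells. A positive value means that the combo change was the more positive. In PC9 8 of 94 promoter regions were called positive and 5 negative, against a background of 14.8%, 9.56% positive and 5.24% negative, and 14 of 80 other regions positive and 12 negative, against 23.3%. None of the 13 PC9 promoter calls remained with summed libraries, where 23 had an unadjusted p under 0.05 in the edgeR fit and 2 were called by DESeq2. In H1975, 25 of 91 promoter regions were positive and 30 negative, against 54.4%, and 51 of 100 other regions were positive and 13 negative, against 64.6% called and 49.5% called positive.

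In H1975 the ABCG2 start region chr4:88158380-88158881 rose with AZD5153 in untreated cells, and its change in DTP cells was 0.05 (SE 0.19, adjusted p = 0.89). The interaction was -0.91 (SE 0.24, adjusted p = 6.9e-04, summed-library adjusted p = 0.054). The second ABCG2 start region, chr4:88158993-88159494, changed by 1.10 in untreated and 0.68 in DTP cells, and its interaction was not called, -0.42 (SE 0.26, adjusted p = 0.18). The ABCC10 start rose in untreated cells as well, its change in DTP cells was 0.20 (SE 0.11, adjusted p = 0.17), and the interaction was -0.99 (SE 0.15, adjusted p = 4.7e-09). ABCC3 differed the other way at its strongest promoter region, which changed by -0.02 with AZD5153 alone and by 0.74 in combo against DTP. Its interaction was 0.76 (SE 0.15, adjusted p = 3.3e-06). The ABCA12 promoter region fell in untreated cells and measured 0.48 (SE 0.20, adjusted p = 0.062) in DTP cells, an interaction of 4.99 (SE 0.40, adjusted p = 3.1e-26), the largest among promoter regions. In PC9 the ABCA13 intron 43 region had an interaction of 3.05 (SE 0.42, adjusted p = 2.5e-10) and the ABCC9 intergenic region one of -2.997 (SE 0.46, adjusted p = 1.6e-08).

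**Figure D5:**
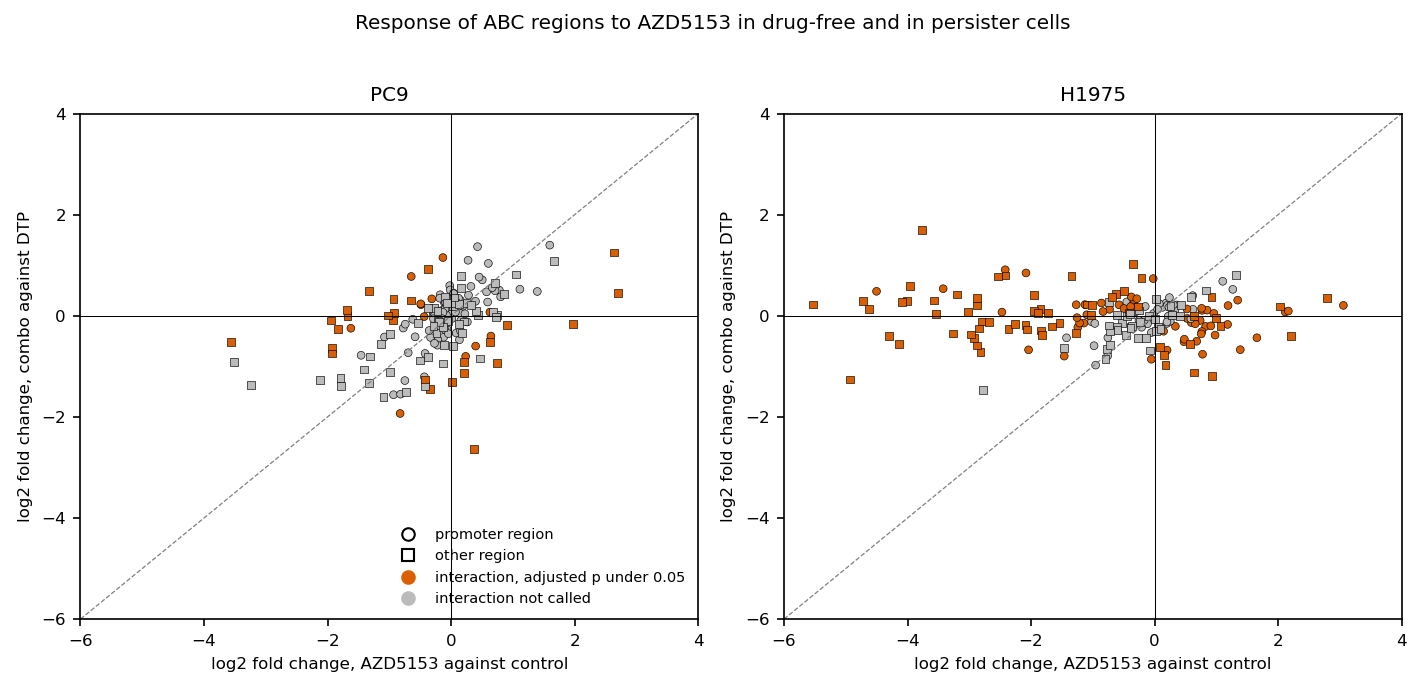
Log2 change with AZD5153 alone against control (x axis) and in combo against DTP (y axis) for each ABC region of PC9 and H1975, coloured where the interaction was called, with a dashed line of equal change. The points of H1975 spread along the x axis, down to -5.53 at ABCA13, more than along the y axis.

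Genes outside the family but of the same pathway were read at their promoter regions. Of 15 nuclear receptors and stress factors that control ABC genes, 12 had promoter regions in PC9 (48 regions), 12 in H1975 (57), 8 in HCC827 (18) and 11 in HCC2935 (33). In DTP cells 10 of these regions were higher and 15 lower in PC9, 9 and 16 in H1975, 8 and 3 in HCC2935, and none was called in HCC827, against 15.1% higher and 14.5% lower of all promoter regions in PC9, 26% and 27% in H1975 and 20.8% and 15.3% in HCC2935. With AZD5153 alone 8 were higher and 8 lower in PC9, and 33 higher and 9 lower in H1975, where their changes ran from -3.99 to 5.29. The background was 11.6% higher and 13.7% lower in PC9 and 39.9% and 29.5% in H1975. Of 9 other drug uptake and extrusion genes, promoter regions of 5 genes in PC9 and H1975, 4 in HCC827 and 3 in HCC2935 were read. In DTP 1 of 12 was higher and 1 lower in PC9, 1 of 12 higher and 4 lower in H1975, 0 of 8 higher and 1 lower in HCC2935 and 0 of 4 called in HCC827, against the DTP shares just given. CFTR, a chloride channel of the ABC fold, had 1 promoter region, in HCC2935, which fell in DTP by 1.87 on the log2 scale. No promoter region of the annotated tables carried the symbol TAP1 or TAP2, so neither gene was analysed here.

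The deposited peak lists come from the same libraries, and how the counted regions were defined from peaks is not given in the sources, so peaks at these regions are a description and no independent check. Of the strongest promoter region of each gene, 25 of 31 in PC9, 24 of 27 in H1975, 13 of 17 in HCC827 and 25 of 28 in HCC2935 had a peak in every library of the line. Among all ABC promoter regions these were 59 of 94, 70 of 91, 18 of 31 and 47 of 64.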

How the data were processed

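Chromatin accessibility was measured in 42 libraries of 4 cell lines. Per line, the authors deposited whole-number read counts for each region and library, and an annotated subset of the regions, chosen by a filter that the sources used here do not give. They also deposited peak lists per library, whose q-values were read as −log10 q. Per the labels, the submitters' processing notes name BWA 0.7.17, SAMtools 1.9, deepTools 3.4, MACS2 2.2.6, featureCounts 2.0.0, ChIPseeker 1.29.1 and build hg38, without roles.

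Counts of each line were fitted with edgeR 4.0.16 (quasi-likelihood F test, all groups in one fit, TMM scaling, filterByExpr), with Benjamini-Hochberg adjustment over all regions tested: 126506 of 502962 in PC9, 191202 of 496892 in H1975, 82309 of 350366 in HCC827 and 154179 of 361905 in HCC2935. All ABC regions were tested. The SE is the change divided by the square root of F. CPM is the count relative to the TMM-scaled library total. Depth limits low regions, and intervals or errors here cover the libraries at hand. The source of the triplicates is not described further, so p-values measure the spread between these libraries, which may be technical.

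Alternatives were DESeq2 size factors, DESeq2 1.42.0, no filter on low counts, the replicate number as a block, libraries summed per group with the dispersion of HCC2935, medians of 10 Mb bins with at least 50 regions removed, and each library left out in turn. Block and medians together were added for HCC827 after the data had been seen. Same-numbered libraries deviated together in HCC827 (r = 0.261 to 0.828), and not in PC9 (-0.0098 to 0.0126), H1975 (-0.0623 to 0.0151) or HCC2935 (-0.0739 to 0.206), where no label ties the numbers to a shared day or batch.

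Regions named in the text are the strongest promoter region of each of 9 drug pump genes, per contrast the 3 largest called rises and falls among promoter and other regions with a mean of at least 1 CPM and groups that do not overlap, regions called alike in DTP in PC9, H1975 and HCC2935, and ABCB1, ABCC1, ABCC3, ABCG2, ABCC4 and ABCC5 regions that complete the account of these genes and were chosen after their values had been seen. The gene lists and members were chosen with earlier results of these data known. Results for 1 gene that the rule names are not reported here. Scripts were tested on simulated data. R 4.3.3, Python 3.11.15, pandas 2.3.3, numpy 2.4.6 and matplotlib 3.10.9 were used.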

Additional observations from a re-analysis of the deposited data

Results flagged for a closer look

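Regions named in the text whose change in combo against DTP differed from that with AZD5153 alone, by the interaction term, are given here. The difference is on the log2 scale, combo against DTP minus AZD5153 alone against control.

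In PC9 promoter regions the difference was 0.71 for ABCC2 (chr10:99779759-99780260), 1.42 for ABCC5 (chr3:184015502-184016003), 1.38 for ABCD3 (chr1:94417289-94417790), 1.28 for ABCC4 (chr13:95299153-95299654), -1.11 for ABCB9 (chr12:122946760-122947261), -1.05 for ABCB10 (chr1:229557764-229558265) and -1.04 for ABCA4 (chr1:94061355-94061856). None of the 7 was called with summed libraries. The ABCC2 call was lost without any 1 of 8 libraries (adjusted p = 0.065 to 0.16), the ABCC4 call without any 1 of 10 (adjusted p = 0.054 to 0.25) and the ABCC5 call without any 1 of 8 (adjusted p = 0.051 to 0.083). The ABCA4 call was lost without DTP replicate 2, combo replicate 1 or 3 or control replicate 3 (adjusted p = 0.056 to 0.084), the ABCD3 call without DTP replicate 1 or combo replicate 1 (adjusted p = 0.053 and 0.072) and the ABCB10 call without AZD5153 replicate 1 or control replicate 3 (adjusted p = 0.0845 and 0.0717).

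In other regions of PC9 it was 3.05 for ABCA13 (chr7:48458982-48459483), 1.85 for ABCC5 (chr3:183965904-183966405), 1.82 for ABCA4 (chr1:94116474-94116975), -2.997 for ABCC9 (chr12:21962149-21962650), -2.25 for ABCA4 (chr1:94090677-94091178) and -2.14 for ABCA3 (chr16:2333960-2334461). The ABCA3 call was lost without DTP replicate 2 (-1.72, adjusted p = 0.154).

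In H1975 promoter regions it was -0.99 for ABCC10 (chr6:43427278-43427779), 0.76 for ABCC3 (chr17:50661743-50662244), -0.91 for ABCG2 (chr4:88158380-88158881), 4.99 for ABCA12 (chr2:215136992-215137493), 3.96 for ABCC2 (chr10:99785635-99786136), 3.33 for ABCC3 (chr17:50688165-50688666), -2.09 for ABCA7 (chr19:1062270-1062771) and -2.07 for ABCG4 (chr11:119148878-119149379).

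In other regions of H1975 it was 5.76 for ABCA13 (chr7:48389909-48390410), 5.47 for ABCC12 (chr16:48129833-48130334), 5.02 for ABCA1 (chr9:104854514-104855015), -2.61 for ABCG1 (chr21:42262664-42263165), -2.43 for ABCA1 (chr9:104968587-104969088) and -2.12 for ABCG1 (chr21:42227960-42228461). The ABCC12 value depends on the prior count, since the DTP libraries held 1 count there.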

How the results depend on the processing

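Several counts of called ABC regions depended on the fit. The share of all annotated regions called with DESeq2, summed libraries, no filter or a library left out is not given. Counts under these fits therefore have no background here and do not speak for the family against other regions. With DESeq2 the promoter calls were 18 in PC9 DTP, 11 in PC9 combo, 17 in PC9 AZD5153 alone, 2 in the PC9 interaction, 9 in H1975 combo and 1 in HCC2935 combo, and the other-region calls were 18 in PC9 combo, 8 in H1975 combo and 11 in HCC2935 combo. With libraries summed the promoter calls were 18 in PC9 DTP, 8 in PC9 combo, 10 in PC9 AZD5153 alone, 0 in the PC9 interaction, 34 in H1975 DTP, 4 in H1975 combo, 34 in the H1975 interaction, 3 in HCC827 DTP, 1 in HCC827 combo, 14 in HCC2935 DTP and 2 in HCC2935 combo, and the other-region calls were 14 in PC9 combo, 12 in the PC9 interaction, 6 in H1975 combo, 3 in HCC827 DTP and 2 in HCC827 combo. The dispersion of HCC2935 used for summed libraries was 0.0102, and that of HCC827 was 0.201. The summed-library calls of HCC827 therefore understate its spread and are no evidence of change. Without a filter the promoter calls were 3 in the PC9 interaction, 11 in H1975 combo and 2 in HCC2935 combo, and the other-region calls 16 in H1975 combo. Strongest promoter regions of HCC827 with a peak of −log10 q of at least 5 in every library numbered 8, against 13 with any peak.

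Replicate numbers were fitted as a replicate block in each line. In HCC827, where they pair the libraries, the block gave 2 promoter and 2 other calls in DTP, and again 2 and 2 with regional medians removed as well. In the other lines the block moved no count of calls by over 1.5 times. Removing regional medians turned the AZD5153-alone change of the ABCC4 start in H1975 from -0.25 to 0.15 (adjusted p = 0.295), a call that was also lost without AZD5153 replicate 2 or 3 or control replicate 1. The cause of these differences was not tested.

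Leaving out 1 library at a time gave 14 to 22 promoter and 21 to 30 other calls in PC9 combo, 5 to 12 promoter calls in the PC9 interaction, 14 to 23 promoter and 14 to 22 other calls in H1975 combo, and 1 to 4 promoter and 12 to 20 other calls in HCC2935 combo. Of 167 calls of named regions 130 held every time and 37 were lost at least once. It was not run for the ABCB1 regions that rose in DTP, the ABCC1 intron region, the ABCC3 start regions in H1975 AZD5153 alone and HCC2935 DTP, and the further ABCG2 regions.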
